A study of Mus musculus with 4 samples.

Results

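The genes described here are the autophagy machinery of mouse bone marrow-derived macrophages: 44 of the 18256 gene symbols in the count files. They were chosen by name. The choice took every symbol that begins with Atg and a digit, with Map1lc3 or with Gabarap, together with Wipi1, Wipi2 and the ULK kinases Ulk1 to Ulk4. To these were added Becn1, Pik3c3, Pik3r4, Uvrag, Rubcn, Ambra1, Rb1cc1, the cargo receptors Sqstm1, Optn, Nbr1, Calcoco1 and Tax1bp1, and the transcription factors Tfeb and Tfe3. A symbol caught this way, Atg4a-ps, is listed as a pseudogene in RefSeq and as protein-coding in GENCODE vM21.

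The study compared unstimulated macrophages, called M0, with macrophages stimulated with interferon-γ and lipopolysaccharide (LPS), called M1, by RNA sequencing of rRNA-depleted total RNA. All samples were labelled WT, and the labels used here give no strain, sex or age. Bone marrow cells from both groups were cultured for 7 days and differentiated with 20 ng/ml recombinant macrophage colony-stimulating factor (MCSF), with the medium renewed every 48 h. On day 6 the M0 cells went on in 20 ng/ml MCSF without stimulus and the M1 cells received 20 ng/ml interferon-γ with 100 ng/ml LPS, each for 24 h. The labels name MCSF for the M0 medium of this last day, and do not say whether the M1 medium held it. There were 2 libraries in each group. No label says that the libraries of a group came from separate mice or cultures, so each p-value reflects the scatter among these 4 libraries alone, and that scatter may be technical.

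Macroautophagy wraps cytoplasm in a double membrane, the autophagosome, and delivers it to the lysosome. The ULK1 kinase complex starts the process, a class III phosphatidylinositol 3-kinase marks the membrane with its lipid, ATG9 and ATG2 proteins supply more membrane, and ubiquitin-like conjugation enzymes attach ATG8 proteins (the LC3 and GABARAP families) to it. Cargo receptors bind ubiquitinated or otherwise marked cargo and the ATG8 proteins at the same time, and TFEB and TFE3 drive transcription of autophagy and lysosome genes. In macrophages these proteins also act on engulfed particles and intracellular bacteria, and transcript levels are no measure of autophagic flux.

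The libraries held 15921466 to 18987705 counted reads, and 14881 to 15523 genes had a count. Levels are given as CPM, the counts of a gene scaled to a common library size with edgeR's TMM factors, which assume that most genes do not differ. The stimulated libraries matched their labels: Nos2, the inducible nitric oxide synthase, stood at 51.9 and 53.5 CPM in M1 and at 0.288 and 0 CPM in M0, Cxcl9 at 111 and 104 against 0.576 and 0 CPM, and the mannose receptor gene Mrc1 at 19.4 and 22.0 against 403 and 419 CPM. All 9 macrophage markers were present. The 8 T and NK cell markers summed to 0.290 to 1.73 CPM in the 4 libraries, with Cd3g, Ncr1 and Gzma at 0 in all. The 5 B cell markers summed to 1.23 to 5.37 CPM, nearly all of it Cd79b, with Ms4a1 at 0 in all. A count of 0, as Nos2 and Cxcl9 had in M0 replicate 2, allows up to 0.144 to 0.185 CPM depending on the library (3 reads, counting error only). The 6 dendritic cell markers summed to 6.52 to 8.93 CPM, with 3 lower in M1 (Siglech at 6.19 and 5.28 CPM in M0 and 0 and 0.308 CPM in M1) and 2 higher (Ccr7 at 0 and 0 against 4.99 and 4.37 CPM). The 11 neutrophil markers summed to 369 and 386 CPM in M0 and 394 and 368 CPM in M1. That near-level sum did not reflect most of them, as 8 were lower in M1 and 2 higher. Among the lower ones, Ngp had 31.8 and 39.7 CPM in M0 and 9.42 and 6.40 CPM in M1. S100a9 had 75.4 and 72.6 against 33.9 and 23.8 CPM. Of the 2 higher ones, Camp had 2.88 and 2.90 CPM in M0 and 7.08 and 6.83 CPM in M1. S100a8, the partner of S100a9 in the list, did not pass, with 83.2 and 98.3 against 94.3 and 67.5 CPM. The 6 stromal markers summed to 714 and 693 CPM in M0 and 451 and 509 CPM in M1, with 2 higher and 4 lower, and the 4 erythroid and megakaryocyte markers present summed to 19.6 and 25.0 against 75.2 and 59.9 CPM. The part of these cells in the changes described here was not tested. In bulk RNA, fewer cells of a type and less RNA per cell cannot be told apart.

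All 44 autophagy genes passed the filter on low counts. The genes of the machinery were more often lower than higher in M1: 21 fell, 10 rose and 13 did not pass (edgeR quasi-likelihood test over all genes, Benjamini-Hochberg adjusted p under 0.05). Over the 12966 genes tested, 24.0% were lower, 24.2% were higher and 48.2% were called in either direction, so a call by itself was common in this comparison. Those shares are the background for every count of calls by role or list below. The members' shares were 47.7% lower, 22.7% higher and 70.5% called. Their median log2 fold change (M1 over M0) was -0.31, beside -0.02 over all tested genes. In 41 of the 44 the M0 and M1 libraries did not overlap, a pattern found in 74.9% of all tested genes. That share is the background for every gene below whose M0 and M1 libraries are said to lie apart. At a fold of at least 2, 7 genes fell (Ulk2, Ulk1, Map1lc3a, Atg16l2, Calcoco1, Optn and Tfeb), beside 11.6% of all tested genes, and only Atg4a-ps rose, beside 9.93% of all tested genes. Many of the smaller changes missed the threshold when 1 library was left out. Such fits keep 1 library in a group and have less power. A call lost in them, here or for a gene below, therefore does not show that the change rested on that library. Falls outnumbered rises whichever library was left out. The fit without M1 replicate 2 leaned less to falls, as Gabarap (0.35), Gabarapl2 (0.66) and Sqstm1 (0.29) passed there as higher. Scaling by library totals, which lowers the median of all genes by 0.25 on the log2 scale, gave 3 rises and 25 falls, against a split of all calls in which 29.8% were higher in place of 50.2%. No called gene changed direction under any setting tried.

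**Figure D1:**
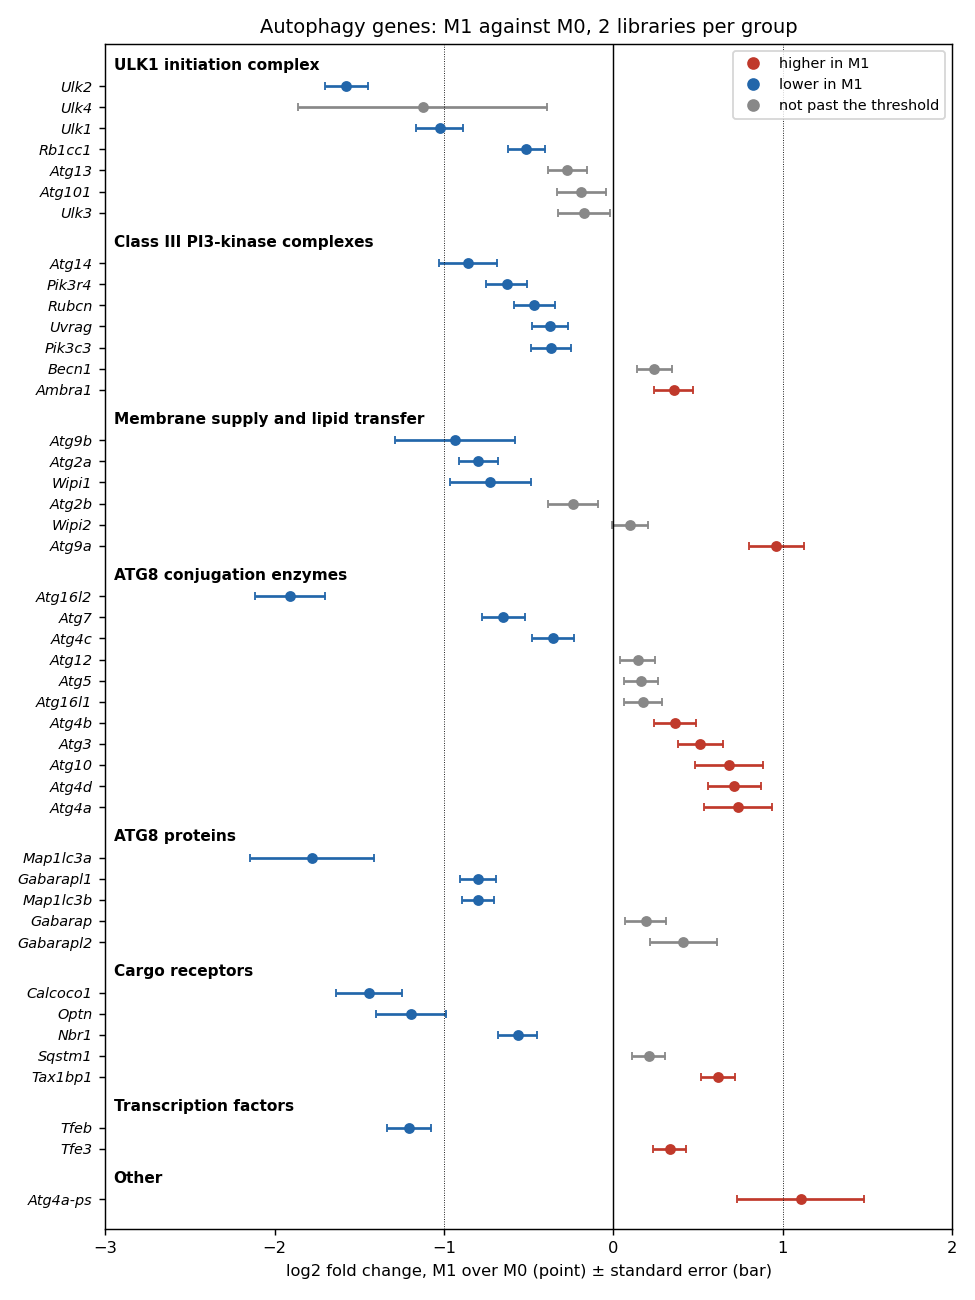
Log2 fold change (M1 over M0, horizontal axis) of the 44 autophagy genes, grouped by role, with bars for the standard error (2 libraries per group), dotted lines at a fold of 2 and the colour giving the call. Most points past the threshold lie left of 0, with Atg16l2 (-1.91) and Map1lc3a (-1.78) at the low end and Atg4a-ps (1.11) and Atg9a (0.96) at the high end.

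The transcription factors moved in opposite directions. Tfeb (chr17:47737030-47792419, GRCm38), which drives the autophagy and lysosome gene programme when it enters the nucleus, stood at 49.6 and 51.1 CPM in M0 and at 22.8 and 20.7 CPM in M1. Its relative Tfe3 (chrX:7762560-7775202) stood at 117 and 128 CPM in M0 and 151 and 158 CPM in M1. The M0 and M1 libraries did not overlap for either gene, as for 74.9% of all tested genes, with Tfeb lower and Tfe3 higher in both stimulated libraries. The log2 fold change of Tfeb was -1.21 ± 0.13 (SE, adjusted p = 1.74e-05, n = 2 per group, edgeR), and the call held under every setting. That of Tfe3 was 0.33 ± 0.10 (adjusted p = 0.0178) and was less firm: it shrank to 0.08 with library totals (adjusted p = 0.53) and missed the threshold without M0 replicate 1 (adjusted p = 0.178) or M0 replicate 2 (adjusted p = 0.0833). Tfe3 also missed the threshold with upper quartile scaling. Per kilobase of merged exons, Tfeb made up 40.8% and 39.5% of the summed Tfeb and Tfe3 transcript level in the M0 libraries and 19.8% and 17.7% in the M1 libraries. With the length of the longest principal transcript the shares were 37.6% and 36.3% in M0 and 17.8% and 15.8% in M1.

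TFEB and TFE3 bind the E-box core CACGTG, a sequence that reads the same on both strands. RefSeq promoter sequences (GRCm38.p6) were at hand for 37 of the 44 members, and the 250 bases before a RefSeq start, any start where a gene has several, held this core in 4 of them (10.8%): Atg3, Atg7, Atg5 and Rubcn. Of the 9974 tested genes with a promoter entry 10.0% held it, so the members' share lay near that of all genes. The stretches around the cores are printed 5′ to 3′ on the gene's strand, with the core in capitals, to show where these members carry it. They lie at chr16:45158690-45158808 (plus strand, with 2 cores), chr6:114670919-114671014 (plus strand), chr10:44268280-44268338 (plus strand) and chr16:32868404-32868499 (minus strand). The RefSeq starts are not always the outermost start in GENCODE, from which gene positions are given here. The start used for Atg7 lies 27999 bases inside the GENCODE gene and the one for Rubcn 9400 bases inside, and the outer RefSeq start of Rubcn has no core. Of the Atg3 stretch, 24 bases lie in annotated exons.
Atg3: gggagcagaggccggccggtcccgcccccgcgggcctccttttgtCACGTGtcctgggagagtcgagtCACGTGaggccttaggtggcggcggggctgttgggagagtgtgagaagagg
Atg7: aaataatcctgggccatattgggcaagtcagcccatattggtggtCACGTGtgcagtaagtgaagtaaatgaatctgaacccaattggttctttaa
Atg5: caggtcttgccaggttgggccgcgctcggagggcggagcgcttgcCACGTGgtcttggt
Rubcn: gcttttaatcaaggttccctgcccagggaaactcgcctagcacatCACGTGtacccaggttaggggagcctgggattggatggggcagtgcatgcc
The carriers went different ways: Atg3 rose, Atg7 and Rubcn fell and Atg5 did not pass, with the values given under their roles. A match to these letters is a description and not evidence of binding. The other motifs searched on both strands were the interferon-stimulated response element, in 0 of 37 members and 3.50% of tested genes, the gamma-activated site TTCNNNGAA, in 4 (10.8%) and 7.13%, and the antioxidant response element core TGANNNNGC, in 19 (51.4%) and 41.4%. The gamma-activated sequence was found before Gabarap, Gabarapl1, Nbr1 and Wipi1. It is shown in capitals for Gabarapl1, whose fall is described with the ATG8 genes, at chr6:129532942-129533031 on the plus strand.
Gabarapl1: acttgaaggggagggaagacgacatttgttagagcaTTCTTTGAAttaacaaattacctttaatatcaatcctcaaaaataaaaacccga
Of these 4 genes, Gabarapl1, Nbr1 and Wipi1 fell and Gabarap did not pass, where 47.7% of the members and 24.0% of all tested genes fell. The start used for Nbr1 lies 505 bases inside the GENCODE gene and that for Wipi1 578 bases inside. The outer RefSeq start of Nbr1 has no such site. A link between the site and the falls was not tested.

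No gene of the initiation complex rose, where 24.2% of all tested genes did. Of its 7 genes 3 fell and 4 did not pass, with a median log2 fold change of -0.51. Its share called, 42.9%, lay below the 48.2% of all tested genes. The kinases that start autophagy both fell: Ulk2 (chr11:61775649-61855073) went from 131 and 131 CPM in M0 to 39.0 and 49.1 CPM in M1, and Ulk1 (chr5:110784488-110810097) from 56.5 and 59.1 to 25.1 and 31.6 CPM. In neither gene did any M1 library come near the M0 level. The log2 fold changes were -1.58 ± 0.13 for Ulk2 (0.335 of the M0 level, adjusted p = 1.51e-06) and -1.02 ± 0.14 for Ulk1 (0.491 of the M0 level, adjusted p = 0.000106), and both calls held under every setting. Per kilobase of merged exons Ulk2 was the more abundant of the pair, with 71.6% and 70.7% of their sum in M0 and 62.7% and 62.7% in M1. Rb1cc1, the scaffold FIP200, fell from 75.5 and 73.5 to 52.6 and 51.7 CPM (log2 fold change -0.51 ± 0.11, adjusted p = 0.00236), but missed the threshold when M0 replicate 1 was left out (adjusted p = 0.059).

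The adaptor subunits and the other kinases did not pass. Atg13, which ties ULK1 to FIP200, had 61.2 and 68.7 CPM in M0 and 52.7 and 54.8 CPM in M1 (-0.27, adjusted p = 0.0711). Its partner Atg101 gave 31.5 and 35.3 against 31.8 and 26.6 CPM, with the libraries overlapping (adjusted p = 0.304). Ulk3, a kinase related to ULK1, gave 20.2 and 21.6 against 18.5 and 18.6 CPM (adjusted p = 0.38). With library totals in place of TMM these 3 passed as lower, and Atg13 did so with upper quartile scaling too (adjusted p = 0.0179). Ulk4, a distant relative, rested on 22, 12, 4 and 9 reads and did not pass (log2 fold change -1.13 ± 0.73, adjusted p = 0.231), so that a change of this size was not detectable at this depth. The summed level of the 7 genes was 377 and 390 CPM in M0 and 219.8 and 233 CPM in M1, and Ulk2 with Ulk1 made the greater part of that difference.

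No gene of the class III phosphatidylinositol 3-kinase complexes changed by a fold of 2. Of 7, 5 fell, 1 rose and Becn1 did not pass, with a median of -0.37 and 85.7% called, beside 48.2% of all tested genes. Atg14, which directs the kinase to the site of autophagosome formation, had 24.0 and 21.9 CPM in M0 and 11.4 and 13.9 CPM in M1 (-0.86 ± 0.17, adjusted p = 0.00185). Pik3r4, the regulatory subunit VPS15, had 47.1 and 49.7 against 30.3 and 32.2 CPM (-0.63 ± 0.12, adjusted p = 0.00148) and was the only call of this complex that held under every setting. The M1 libraries lay below the M0 libraries in both genes, though Atg14 missed the threshold when M0 replicate 1 was left out (adjusted p = 0.0641). Further genes fell by 0.37 to 0.47 on the log2 scale: the catalytic subunit Pik3c3 (56.2 and 53.3 against 40.6 and 44.3 CPM), Uvrag, which forms the endosomal complex in place of Atg14 (94.8 and 90.9 against 67.5 and 75.7 CPM), and Rubcn, an inhibitor of autophagosome maturation that also serves LC3-associated phagocytosis (62.0 and 60.5 against 40.7 and 47.9 CPM).

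Those small falls missed the threshold in fits that left out a library, and Pik3c3 missed it with DESeq2 too. A further gene, Gm45187, covers 17.6% of the exon length of Uvrag. Without M0 replicate 1 the adjusted p was 0.166 for Pik3c3, 0.153 for Uvrag and 0.119 for Rubcn. Without M0 replicate 2 it was 0.107, 0.108 and 0.0988, and without M1 replicate 1 it was 0.104, 0.0756 and 0.056. The scaffold Becn1, which BCL2 proteins bind to restrain autophagy, stood at 64.1 and 63.4 CPM in M0 and 73.9 and 76.9 CPM in M1 (0.24, adjusted p = 0.0814). Its difference was -0.01 with library totals. Becn1 shares 43.9% of its exon length with Cntd1 on the opposite strand, and whether the counting used strand is not given in the sources used here, so its value is uncertain. Ambra1, which binds Becn1 and promotes its activity, rose from 41.2 and 41.8 to 52.3 and 53.9 CPM (0.36, adjusted p = 0.0245), but leaving out each library in turn ended the call, with adjusted p = 0.14, 0.117, 0.0506 and 0.0687 without M0 replicates 1 and 2 and M1 replicates 1 and 2. The Ambra1 call was lost with library totals (adjusted p = 0.476) as well, and with DESeq2, upper quartile scaling and replicate number as a block. Atg14 took a smaller share of the summed Atg14 and Uvrag level per merged exon length in M1 (26.1% and 27.8%) than in M0 (34.6% and 33.5%).

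Among the genes for membrane supply and lipid transfer, 3 of 6 fell and 1 rose (median -0.48). The share called was 66.7%, beside 48.2% of all tested genes, and the ATG9 pair split. Atg9a (chr1:75180860-75192196), the scramblase that rides on the vesicles which seed the autophagosome, had 24.5 and 19.9 CPM in M0 and 38.2 and 48.5 CPM in M1. Atg9b, its scarcer relative, had 4.22 and 4.75 CPM in M0 and 2.03 and 2.65 CPM in M1. Both stimulated libraries were above M0 for Atg9a and below it for Atg9b. Atg9a rose by 0.96 ± 0.16 on the log2 scale (adjusted p = 0.000564), the largest rise after that of Atg4a-ps (1.11), and was lost as a call only without M0 replicate 2 (0.83, adjusted p = 0.0561). Gm29253 on the same strand and, over a short stretch, Ankzf1 on the opposite strand together cover 32.6% of its exon length, so part of its reads may belong to other genes. The fall of Atg9b (-0.94 ± 0.35, adjusted p = 0.0483) lay at the threshold and was lost without each of the 4 libraries (adjusted p = 0.141, 0.195, 0.159 and 0.0511) and with DESeq2 (adjusted p = 0.132). Atg9b also missed the threshold with limma-voom and with replicate number as a block. Per merged exon length, Atg9a made up 79.9% and 74.1% of the ATG9 level in M0 and 92.8% and 92.6% in M1.

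Of the lipid transfer pair, Atg2a passed and Atg2b did not, and the difference between them was not tested. Atg2a (chr19:6241668-6262335), a bridge that moves lipid into the growing membrane, fell from 73.0 and 68.9 to 39.6 and 42.0 CPM (-0.80 ± 0.11, adjusted p = 0.000161), under every setting. Its paralog Atg2b overlapped between groups, with 86.2 and 67.6 CPM in M0 and 57.9 and 72.4 CPM in M1 (-0.24, adjusted p = 0.201). Of the proteins that read the kinase's lipid, Wipi1 fell from 11.03 and 10.1 to 5.36 and 7.45 CPM (-0.73 ± 0.24, adjusted p = 0.0276) and Wipi2, which brings ATG16L1 to the membrane, had 69.1 and 67.5 against 76.0 and 70.1 CPM (0.10, adjusted p = 0.491). Wipi1 was lost without M0 replicate 1 (adjusted p = 0.191), M0 replicate 2 (adjusted p = 0.13) or M1 replicate 1 (adjusted p = 0.137). With all 4 libraries Wipi1 missed the threshold under DESeq2. Wipi2 took the opposite sign with upper quartile scaling (-0.01) and library totals (-0.16).

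**Figure D2:**
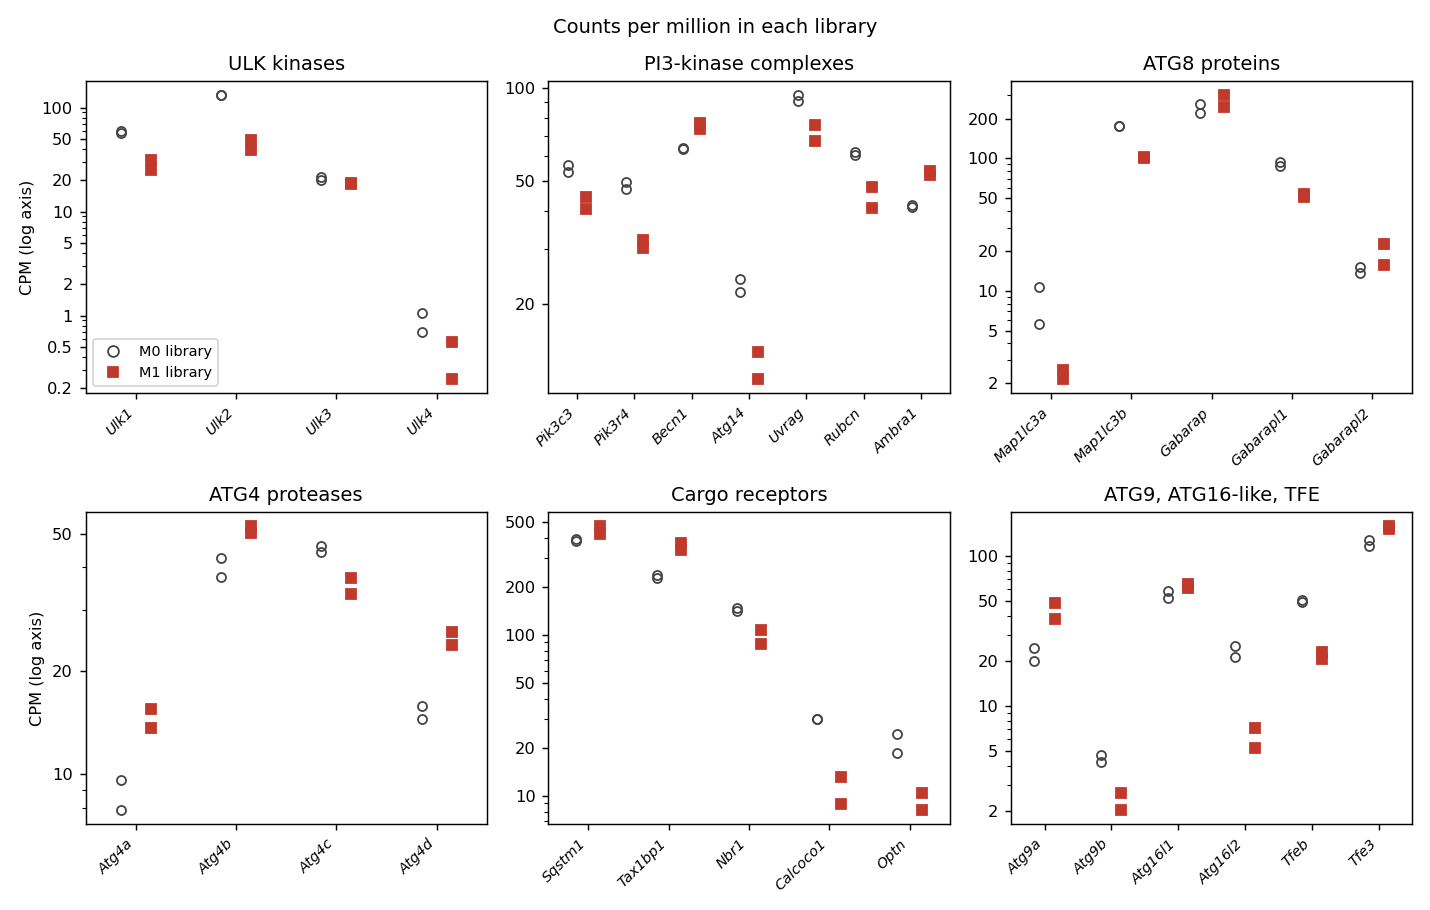
TMM-scaled CPM (vertical log axis) in each of the 4 libraries for 31 autophagy genes in 6 panels by role, with open circles for M0 libraries and filled squares for M1 libraries. The squares lie well below the circles for Ulk2, Tfeb, Calcoco1 and Atg16l2 and above them for Tax1bp1 and Atg9a, and overlap them for Gabarap.

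Among the enzymes that conjugate ATG8 proteins, 5 of 11 rose, 3 fell and 3 did not pass (median 0.17). The share called was 72.7%, beside 48.2% of all tested genes. With library totals the sign of Atg12, Atg5 and Atg16l1, which did not pass, turned to -0.11, -0.09 and -0.08. The core of the E3-like complex did not pass. Atg12, the ubiquitin-like protein, had 77.9 and 79.6 CPM in M0 and 85.2 and 88.6 CPM in M1 (0.14, adjusted p = 0.281), and its target Atg5 had 85.6 and 81.7 against 94.9 and 92.3 CPM (0.16, adjusted p = 0.216). The scaffold Atg16l1, which sets where ATG8 is attached, had 52.8 and 58.6 against 60.8 and 64.7 CPM (0.17, adjusted p = 0.233). Its paralog Atg16l2 (chr7:101263034-101302251), which binds ATG5 but does not replace ATG16L1 in canonical autophagy, went from 25.1 and 21.4 to 7.14 and 5.23 CPM. This was the largest change among the 44 genes, with both M1 libraries far below M0 (-1.91 ± 0.21, 0.266 of the M0 level, adjusted p = 1.93e-05) under every setting. Atg16l2 made up 35.1% and 29.3% of the pair per merged exon length in M0 and 11.8% and 8.41% in M1. By principal transcript length the shares were 18.8% and 15.0% in M0 and 5.38% and 3.77% in M1.

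The enzymes that act in sequence on ATG8 did not move together. Atg7, the E1-like enzyme of both conjugation pathways, fell from 53.4 and 63.7 to 38.2 and 36.4 CPM (-0.65 ± 0.13, adjusted p = 0.00162), but missed the threshold when M0 replicate 2 was left out (adjusted p = 0.0601). The E2-like enzymes rose. Atg3, which hands ATG8 to its lipid, went from 53.2 and 66.8 to 90.8 and 80.3 CPM (0.51 ± 0.13, adjusted p = 0.00795), and Atg10, which hands ATG12 to ATG5, from 9.21 and 10.8 to 17.8 and 14.2 CPM (0.68 ± 0.20, adjusted p = 0.0156). The libraries did not overlap in any of these 3 genes, as in 74.9% of all tested genes. Atg3 was lost without M0 replicate 1 (adjusted p = 0.155), and Atg10 without M0 replicate 1 (0.161), M0 replicate 2 (0.0813) or M1 replicate 1 (0.1). Both missed the threshold with library totals, at adjusted p = 0.112 for Atg3 and 0.0908 for Atg10.

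The ATG4 proteases, which prepare ATG8 for conjugation and strip it from membrane again, split 3 against 1. Atg4a went from 7.87 and 9.62 to 15.5 and 13.6 CPM (0.74 ± 0.20, adjusted p = 0.0116), Atg4d from 15.8 and 14.5 to 23.8 and 25.9 CPM (0.71 ± 0.16, adjusted p = 0.00319) and Atg4b from 37.6 and 42.6 to 52.7 and 50.3 CPM (0.36, adjusted p = 0.0298). Atg4c went the other way, from 44.3 and 46.3 to 37.3 and 33.5 CPM (-0.36, adjusted p = 0.0355). As a share of the 4 transcripts per merged exon length, Atg4c went from 57.7% and 56.2% in M0 to 41.9% and 40.4% in M1. Each of these calls missed the threshold in 1 or more fits that left out a library. Without M0 replicate 1 the adjusted p was 0.123 for Atg4a, 0.213 for Atg4b and 0.141 for Atg4c, and without M0 replicate 2 it was 0.0536, 0.0796 and 0.191, and 0.0621 for Atg4d. Without M1 replicate 1 it was 0.0521 for Atg4a and 0.099 for Atg4b, and without M1 replicate 2 it was 0.175 for Atg4c. With library totals Atg4a (adjusted p = 0.065) and Atg4b (adjusted p = 0.466) missed the threshold. Atg4b and Atg4c missed it with DESeq2 and with replicate number as a block, and Atg4b with upper quartile scaling too. Atg4a-ps rested on 41, 33, 75 and 61 reads (1.11 ± 0.37, adjusted p = 0.0306) and was lost without M0 replicate 1 (adjusted p = 0.127), M0 replicate 2 (0.125) or M1 replicate 1 (0.138). Atg4a-ps missed the threshold with DESeq2 and library totals too. Of its stretches of 50 bases, 72.2% also occur in Atg4a or Syt6, and 51.2% of those of Atg4a occur in other genes. Reads of Atg4a and Atg4a-ps therefore cannot be split with certainty. Atg4d shares 19.3% of its exon length with Kri1.

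The ATG8 genes, whose products coat the autophagosome and hold cargo, divided by member. Of 5, 3 fell and Gabarap and Gabarapl2 did not pass (60.0% called, beside 48.2% of all tested genes). Map1lc3b (chr8:121590361-121598760), which encodes the LC3B protein used as the standard marker of autophagosomes, went from 176 and 177 to 100.3 and 103 CPM (-0.80 ± 0.10, adjusted p = 4.15e-05). Gabarapl1 (chr6:129533160-129542346) went from 88.0 and 94.4 to 53.6 and 51.2 CPM (-0.80 ± 0.11, adjusted p = 0.000112). Both falls held under every setting, and the 2 M1 libraries of each gene lay close together and well below M0. An opposite-strand gene, 1700101I11Rik, covers 28.3% of the exon length of Gabarapl1. Map1lc3a, the other LC3 gene measured, was scarce, with 5.56 and 10.6 CPM in M0 and 2.16 and 2.52 CPM in M1 (-1.78 ± 0.37, adjusted p = 0.0021), and M0 replicate 2 stood far above M0 replicate 1. Without M0 replicate 2 its change was -1.24 and missed the threshold (adjusted p = 0.0727).

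Gabarap (chr11:69991143-69994951) was the most abundant ATG8 transcript per length and overlapped between groups, with 219 and 257 CPM in M0 and 300.1 and 243 CPM in M1 (0.19, adjusted p = 0.227). Gabarapl2 (also called GATE-16) had 13.6 and 15.1 against 22.4 and 15.8 CPM (0.41, adjusted p = 0.109). M1 replicate 1 was the highest library for both, and without M1 replicate 2 both passed as higher, at 0.35 for Gabarap (adjusted p = 0.0308) and 0.66 for Gabarapl2 (adjusted p = 0.0163). With library totals the sign of Gabarap turned to -0.06. Of the 50-base stretches of Gabarapl2, 12.2% occur in other genes, so its counts may be shared. The make-up of the ATG8 transcripts shifted. Per merged exon length, Gabarap made up 60.4% and 61.9% in M0 and 76.0% and 73.3% in M1, the LC3 genes 14.3% and 14.4% against 7.08% and 8.79%, and Gabarapl1 22.2% and 20.8% against 12.4% and 14.1%. The merged exons of Map1lc3b are 7517 bases long and its principal transcript 2532, so the length model moves these levels. By principal transcript length, the LC3 genes made up 25.5% and 24.0% in M0 and 13.6% and 16.5% in M1, and Gabarap 55.3% and 57.6% against 72.5% and 69.1%. The order of Map1lc3b and Gabarapl1 depended on the length used, while Gabarap came first with either.

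**Figure D3:**
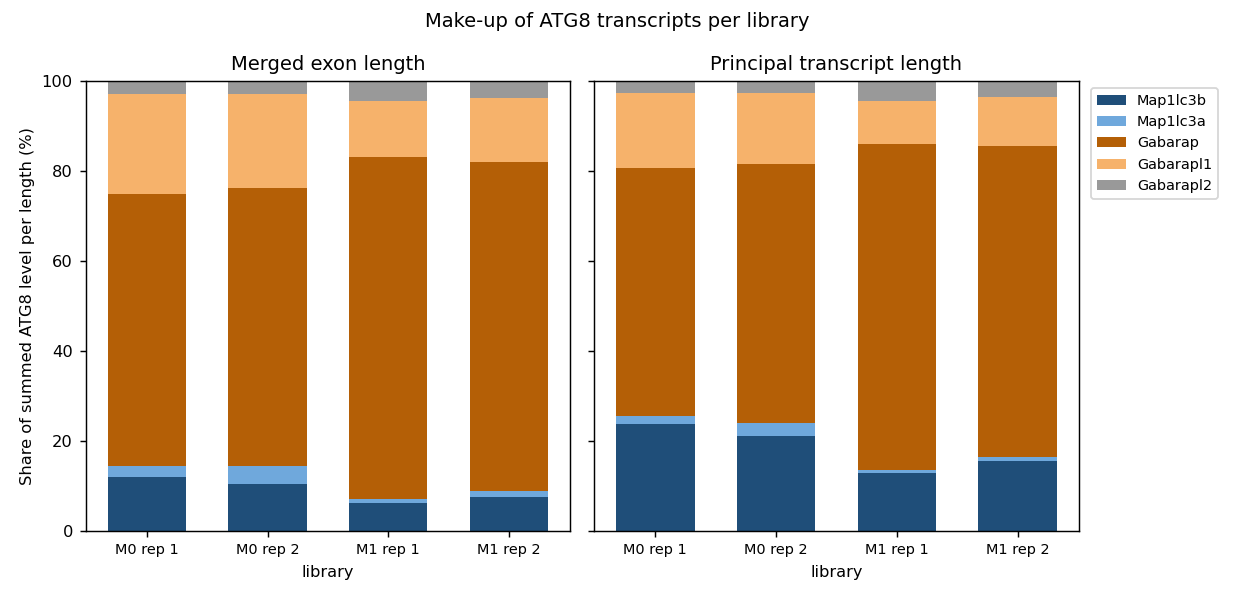
Share of each ATG8 gene in the summed ATG8 transcript level per length (percent, vertical axis) in each of the 4 libraries, as stacked bars, with merged exon length on the left and principal transcript length on the right. In both panels the LC3 genes and Gabarapl1 take less, and Gabarap more, of the M1 bars.

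The cargo receptors also split. Of 5, 3 fell, Tax1bp1 rose and Sqstm1 did not pass (median -0.57, 80.0% called, beside 48.2% of all tested genes). Calcoco1 (chr15:102706777-102722178), a receptor for endoplasmic reticulum turnover, went from 30.0 and 30.0 to 8.87 and 13.2 CPM (-1.44 ± 0.19, 0.368 of the M0 level, adjusted p = 0.000101), under every setting. Optn (chr2:5020642-5064051), a receptor for bacteria and damaged mitochondria that TBK1 phosphorylates, went from 24.2 and 18.4 to 8.19 and 10.5 CPM (-1.19 ± 0.21, adjusted p = 0.000653). Nbr1, a receptor for ubiquitinated aggregates and peroxisomes, went from 147 and 142 to 87.9 and 107 CPM (-0.57 ± 0.11, adjusted p = 0.00195). In all 3 the M1 libraries lay below both M0 libraries. Optn was lost without M0 replicate 1 (adjusted p = 0.0513), and Nbr1 without M0 replicate 1 (adjusted p = 0.0856) or M0 replicate 2 (adjusted p = 0.0703).

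Tax1bp1 (chr6:52713729-52766780), a ubiquitin-binding receptor that also restrains NF-κB signalling with A20, went from 225 and 237 CPM in M0 to 372 and 337 CPM in M1 (0.62 ± 0.10, 1.53 times the M0 level, adjusted p = 0.000355). It was the single rise among the 44 genes that held under every setting. Sqstm1 (chr11:50199366-50210827), which encodes p62, stood at 385 and 394 CPM in M0 and 473 and 427 CPM in M1 (0.21, adjusted p = 0.0967), without overlap. Its exons overlap Mrnip over 17.3% of their length. It passed as higher without M1 replicate 2 (0.29, adjusted p = 0.0371) and had the opposite sign with library totals (-0.04). Per merged exon length Sqstm1 averaged 116 CPM per kilobase in M0 and 134 in M1 and Gabarap 129 and 147, above all other members. With principal transcript length the order of the pair was reversed, at 191 and 221 for Sqstm1 and 176 and 201 for Gabarap. Sqstm1 made up 67.4% and 68.3% of the receptor level per merged exon length in M0 and 72.4% and 70.0% in M1, but by principal transcript length its share overlapped, at 61.4% and 61.8% against 62.8% and 61.1%. Tax1bp1 made up 13.2% and 13.8% against 19.1% and 18.6% by merged exons, and 22.2% and 23.1% against 30.6% and 29.9% by principal transcript. By merged exons Calcoco1 went from 3.07% and 3.04% to 0.79% and 1.27%, and Optn from 3.79% and 2.85% to 1.12% and 1.54%.

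The genes called under every setting came from all 7 roles, with Atg4a-ps in none of them and not called under every setting. They were Ulk2, Ulk1, Pik3r4, Atg2a, Atg16l2, Map1lc3b, Gabarapl1, Calcoco1 and Tfeb, all 9 lower in M1, and Tax1bp1, higher in M1. The summed level of the 44 genes differed much less than its parts, with 2981 and 3062 CPM in M0 and 2887 and 2818 CPM in M1. Of the 6 genes with the highest mean CPM over the 4 libraries, Tax1bp1 and Tfe3 rose, Sqstm1 and Gabarap did not pass, and Map1lc3b and Nbr1 fell.

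Genes of the same pathway that the name rule did not catch were followed in 7 lists with 81 tested genes. Of these, 33 (40.7%) fell, 25 (30.9%) rose and 23 did not pass, with a median of -0.16 and 71.6% called. Over all tested genes 24.0% fell, 24.2% rose and 48.2% were called, which is the background for each list. Scaling by library totals gave 43 falls and 15 rises. Upstream of ULK1, the mTORC1 and AMPK list had 7 falls and 3 rises among 20 tested genes (median -0.14), and its share called, 10 of 20, lay near the 48.2% of all tested genes. Its largest changes were falls of Rragd, a Rag GTPase that recruits mTORC1 to the lysosome, from 27.6 and 27.8 to 0.369 and 1.85 CPM (-4.63 ± 0.38, adjusted p = 1.96e-06), of the mTOR inhibitor Deptor (-2.45), of the AMPK subunit Prkag2 (-1.68) and of Sesn1 (-1.64). The AMPK subunits Prkab1 (0.57) and Prkaa1 (0.46) rose, while Prkab2 (-0.93) fell. Prkab1 missed the threshold without M0 replicate 1 (log2 fold change 0.44), Prkaa1 without M0 replicate 2 (0.40), and both with library totals (adjusted p = 0.0975 and 0.121). Prkab2 missed it without M0 replicate 1 (-0.91) or M0 replicate 2 (-0.94). Without M0 replicate 1 or M0 replicate 2 this list had 1 rise, and with library totals 0. Among the relatives and regulators of TFEB, 4 of 6 fell and 2 rose (median -0.73), where 24.0% of all tested genes fell and 24.2% rose. Flcn (-1.37), Fnip1 (-1.001) and Fnip2 (-1.002), which form the GTPase-activating complex that acts on RagC and RagD, fell, while Tfec (0.59) and Mitf (0.43) rose. Tfec missed the threshold without M0 replicate 1 (adjusted p = 0.272), M1 replicate 1 (0.0801) or M1 replicate 2 (0.0512), and Mitf without M0 replicate 1 (0.107), M0 replicate 2 (0.2) or M1 replicate 2 (0.0723). With library totals neither passed (adjusted p = 0.188 for Tfec and 0.244 for Mitf). Tfec also missed the threshold with DESeq2 (0.0559) and upper quartile scaling (0.0731).

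Downstream, the list for fusion of autophagosome and lysosome had 7 falls and 2 rises among 14 genes (median -0.26). The share called was 64.3%, beside 48.2% of all tested genes. Tecpr1, a tether that binds ATG5 and ATG12, went from 180 and 142 to 36.8 and 37.8 CPM (-2.11 ± 0.13, adjusted p = 1.76e-07), and the adaptor Plekhm1 fell by 1.39 on the log2 scale. The SNARE genes differed, with Stx17 (-0.82) and Snap29 (-0.34) lower and Vamp8 (1.301) and Ykt6 (0.51) higher. Snap29 missed the threshold with DESeq2 (adjusted p = 0.0668) and with replicate number as a block (0.0681). It also missed it without each library in turn (log2 fold change -0.31 to -0.36). Ykt6 missed it without M0 replicate 2 (log2 fold change 0.49). Without either M0 library 4 genes of this list fell, and without M0 replicate 2 only 1 rose. Among 11 other genes of autophagosome formation 5 fell and 2 rose (median -0.17, 63.6% called, beside 48.2%). Trp53inp1 (-2.50), Wdr45 (-1.31) and Trp53inp2 (-0.74) fell. Vmp1, a scramblase of the endoplasmic reticulum, rose from 176 and 201 to 510.0 and 418 CPM (1.301 ± 0.12, adjusted p = 4.64e-06), and the kinase Tbk1 rose by 0.71. The receptors for particular organelles had 7 falls and 3 rises among 14 tested genes (median -0.51, 71.4% called, beside 48.2%). Pink1, which marks damaged mitochondria, went from 55.9 and 60.9 to 11.9 and 6.46 CPM (-2.67 ± 0.22, adjusted p = 2.19e-06), and the ferritin receptor Ncoa4 (-1.14), the mitochondrial receptor Bnip3l (-1.13) and the glycogen-binding Stbd1 (-1.95) fell. Bnip3 (0.91) and Fkbp8 (0.42) rose. Stbd1 missed the threshold without M0 replicate 1 (adjusted p = 0.0745), M0 replicate 2 (0.164) or M1 replicate 1 (0.0622), Bnip3 without M0 replicate 2 (0.0581), and Fkbp8 without M0 replicate 1 (0.11) or M0 replicate 2 (0.0683) and with library totals (0.183). Without M0 replicate 1 this list had 4 falls and 1 rise, and without M0 replicate 2 it had 4 and 0.

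Other lists moved mostly upward. The oxidase of LC3-associated phagocytosis, in which NADPH oxidase activity precedes LC3 attachment to the phagosome, rose in all 6 genes (median 1.35). Rac2 went from 216 and 231 to 1214 and 1195 CPM (2.43 ± 0.10, adjusted p = 4.29e-09), and Ncf1 (1.46), Ncf4 (1.37) and Cybb (1.32) followed. Of the NRF2 list, whose factor p62 can release from its inhibitor KEAP1, 7 of 10 rose and 3 fell (median 0.58). The 7 include Keap1, the inhibitor's own gene (0.80, adjusted p = 0.000208). The cystine transporter gene Slc7a11 went from 29.3 and 30.7 to 203 and 242 CPM (2.89 ± 0.12, adjusted p = 6.69e-09), and Hmox1 (1.46), Me1 (1.35) and Nqo1 (1.495) rose. Without M0 replicate 1, Nqo1 missed the threshold (adjusted p = 0.0772) and 4 genes of the list rose. The factor's own gene Nfe2l2 (-0.75) and its targets Gclc (-0.57) and Gclm (-0.53) fell. Gclm missed the threshold without M0 replicate 1 (log2 fold change -0.61) or M0 replicate 2 (-0.45). The rises of Txnrd1 (0.33) and Srxn1 (0.36) missed it with library totals (adjusted p = 0.52 and 0.399), with upper quartile scaling and without either M0 library. For both lists the background is that 24.2% of all tested genes rose.

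**Figure D4:**
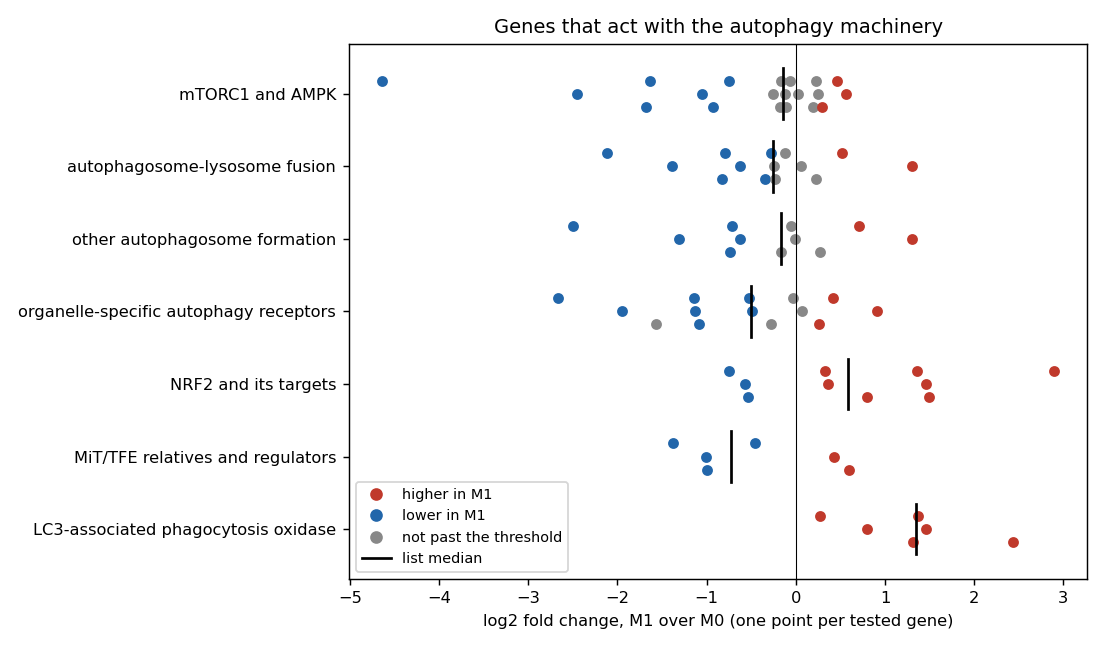
Log2 fold change (M1 over M0, horizontal axis) of each tested gene of the 7 pathway lists, 1 point per gene, with the colour giving the call and a black bar the list's median. The phagocytosis oxidase (median 1.35) and the NRF2 list (median 0.58) lie to the right of 0, and Rragd (-4.63) is the leftmost point.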

How the data were processed

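RNA of 2 M0 and 2 M1 libraries was analysed from whole-number read counts per gene symbol that the authors deposited. Per the submitters' processing notes the tools were featureCounts of Subread 2.0.1 and DESeq2 1.30.1 in R 4.0.4 on mm10. The annotation, the strand setting and any filter are not given in the sources used here. The counts were tested with edgeR 4.0.16 in R 4.3.3: filterByExpr (minimum count 10, minimum total 15) left 12966 genes, TMM factors were 0.911 to 1.10, and glmQLFit and glmQLFTest compared the groups without a covariate. A gene was called at a Benjamini-Hochberg adjusted p under 0.05, adjusted over every gene tested. The standard error is the absolute log2 fold change over the square root of F. Levels per length used GENCODE vM21 (GRCm38) merged exon lengths, and positions come from it. Alternatives were other scalings, DESeq2 1.42.0, limma-voom (limma 3.58.1), other filters, a replicate block and each library left out. Principal transcript length was added after seeing the data. The scripts were tested on simulated counts. All 44 members are accounted for, in full where they passed at a fold of at least 2 or where a role's directions differ. In each pathway list the 4 largest changes that passed are named, with up to 2 against the direction of most. Snap29, Prkab2, Keap1, Gclm, Txnrd1 and Srxn1 are named beside related genes. The members and lists were chosen with earlier results of these data known. Libraries of the same group were farther apart than counting noise allows (chi-square per degree of freedom 9.15 in M0 and 13.3 in M1), with a biological coefficient of variation of 10.9%.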

Additional observations from a re-analysis of the deposited data

How the results depend on the processing

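Depth of 15921466 to 18987705 reads with 2 libraries a group limits small changes and scarce genes (Ulk4, Atg4a-ps, Atg9b). With library totals, 2024 genes were higher and 4776 lower in place of 3140 and 3109, 3 members were higher in place of 10, 0 higher and 12 lower at a fold of at least 2 in place of 1 and 7, and 15 pathway genes higher in place of 25. DESeq2 gave 0 members higher at that fold. Leaving out 1 library gave 1691 to 2966 genes higher, 1463 to 2855 lower, 2 to 12 members higher, 11 to 19 lower, 0 to 1 higher and 5 to 7 lower at a fold of at least 2, and 14 to 22 pathway genes higher and 22 to 31 lower. These fits test with fewer samples, and a lone library is assumed to vary like the other group. Library totals turned the log2 fold change of Becn1 to -0.00994, Wipi2 to -0.16, Atg12 to -0.11, Atg5 to -0.0907, Atg16l1 to -0.0769, Gabarap to -0.0623 and Sqstm1 to -0.0445, and upper quartile scaling that of Wipi2 to -0.00705. None of these had passed. Shares by principal transcript length, M0 and M1, were 24.7% and 15.0% for the LC3 genes, 56.4% and 70.8% for Gabarap, 36.9% and 16.8% for Tfeb and 47.0% and 32.5% for Atg4c, against 14.4% and 7.93%, 61.2% and 74.6%, 40.1% and 18.7%, and 57.0% and 41.1%. Of 31 member calls the relative log expression factors and both other filters lost 0, limma-voom 1, upper quartile scaling 3, DESeq2 7 and library totals 7. The replicate block left 2957 genes higher and 2974 lower, 8 members higher and 19 lower, and lost 4 member calls (Ambra1, Atg4b, Atg4c and Atg9b). The replicate numbers pair nothing in the labels, and same-numbered deviations correlated at -0.08. The cause of these differences was not tested.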
